A study of Mus musculus with 74 samples.

Results

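The 40 genes described here encode proteins of the cell division cycle: 23 act in mitosis, 7 in DNA replication (Mcm2 to Mcm7 and Pcna), 3 in licensing of replication origins, 4 in nucleotide supply and 3 at the entry into S phase. They were taken from a list of symbols grouped by function, which was drawn up with earlier results of these data known. Of the 40, 39 were listed in at least 1 of the 6 deposited tables and 38 in all 6, out of 17853 genes listed in at least 1 table. Cdc6, an origin licensing factor, was listed in none, and Cdk1, the mitotic kinase, was listed in the V303M table alone, where its highest count in a library was 7. Why they are missing was not tested, and neither gene is described further. Of the remaining members, Cenpf, Tyms, Bub1 and Ccne2 were too low for the test in 11, 8, 2 and 2 of the 13 comparisons.

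Cells copy their DNA in S phase and divide in M phase. E2F factors switch on genes for replication (the Mcm helicase, the sliding clamp PCNA, ribonucleotide reductase) at the boundary of G1 and S, and the DREAM and MuvB complexes control genes for chromosome segregation that peak in G2 and M. In the thymic medulla, dividing epithelial cells with high MHC class II are known as precursors and early AIRE+ cells, while fully mature AIRE+ cells have largely left the cycle. AIRE is a nuclear regulator through which these cells express transcripts of many peripheral organs for T cell tolerance.

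RNA came from mTEChi, the MHC class II high epithelium of the thymic medulla, sorted from mice aged 4 to 7 weeks. It was read by bulk MARS-seq, a method that counts tags at the 3′ ends of transcripts. On C57BL/6, a null line gave 3 Aire +/+, 5 Aire +/- and 4 Aire -/- libraries. The Y86C line, altered in the CARD domain, gave 3 +/+, 3 +/Y86C and 3 Y86C/Y86C, and the C313X line, with a stop codon in the first PHD finger, gave 3 +/+, 2 +/C313X and 3 C313X/C313X. The C442G line, altered in the second PHD finger, gave 3 +/+, 5 +/C442G and 6 C442G/C442G. On NOD, the V303M line, altered in the first PHD finger, gave 3 libraries of each genotype, and a null line gave 3 Aire +/- and 3 Aire -/-, so that heterozygotes are its controls. The C313Y allele, in the first PHD finger, was measured as 4 +/C313Y against 5 +/+, of which 2 are titled C313T, and as 3 Aire -/C313Y against 3 +/+ of the same title form. The labels do not say whether libraries of a group came from separate mice, so p-values measure the spread between libraries. The question for these genes was how their transcripts differed between each Aire genotype and the controls of its own table.

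Library totals ran from 1016619 to 7225403 counts, and no replicate pair agreed within sampling noise. One further library of the C57BL/6 null line had conflicting labels and entered no group. Aire transcripts were called higher in 9 of the 13 comparisons. Among homozygous and compound mutants the log2 fold change of Aire ran from 0.29 in V303M/V303M, which was not called, to 1.32 in Y86C/Y86C. Tags at the 3′ end need not cover the altered sequence, so this level checks no label. All 19 markers fixed for medullary epithelium were listed in the tables. Each library pools cells, so fewer dividing cells and less RNA per dividing cell cannot be told apart.

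Promoters show how the mitosis and replication members differ in sequence. RefSeq (GRCm38.p6) promoter windows, 250 bases before to 50 after a transcript start, matched 33 of the 40 members in 35 windows. Windows on chromosome 18 were left out, for members and in the counts over all genes. Searched on both strands were E2F sites (the letters TTCGCGC or the letters TTGGCGC, and also the letters TTCCCGC or the letters TTGCCGC), the cell cycle genes homology region or CHR (TTTGAA or TTTAAA), and the CCAAT box (CCAAT). A CHR match was present in 18 of 20 mitosis windows, 28.6% of 7 replication windows and 27.6% of 32851 windows of all genes. An E2F match was present in 71.4% of the replication windows, 3 of 20 mitosis windows and 9.57% of all windows. A CCAAT box was found in 18 of 20 mitosis windows, all 7 replication windows and 37.4% of all windows. Windows are not genes: the 7 replication windows belong to 6 genes, with Mcm7 in 2 windows that both hold E2F matches. The 20 mitosis windows belong to 19 genes, with Prc1 in 2 windows that overlap and hold the same sites. The reverse complement of TTGGCGC ends in CCAA and can overlap a CCAAT box, and TTTAAA reads the same on both strands. A match is a string of letters and does not show binding. The map of matches by distance from the start shows most CHR matches of mitosis members close to the start.

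**Figure D1:**
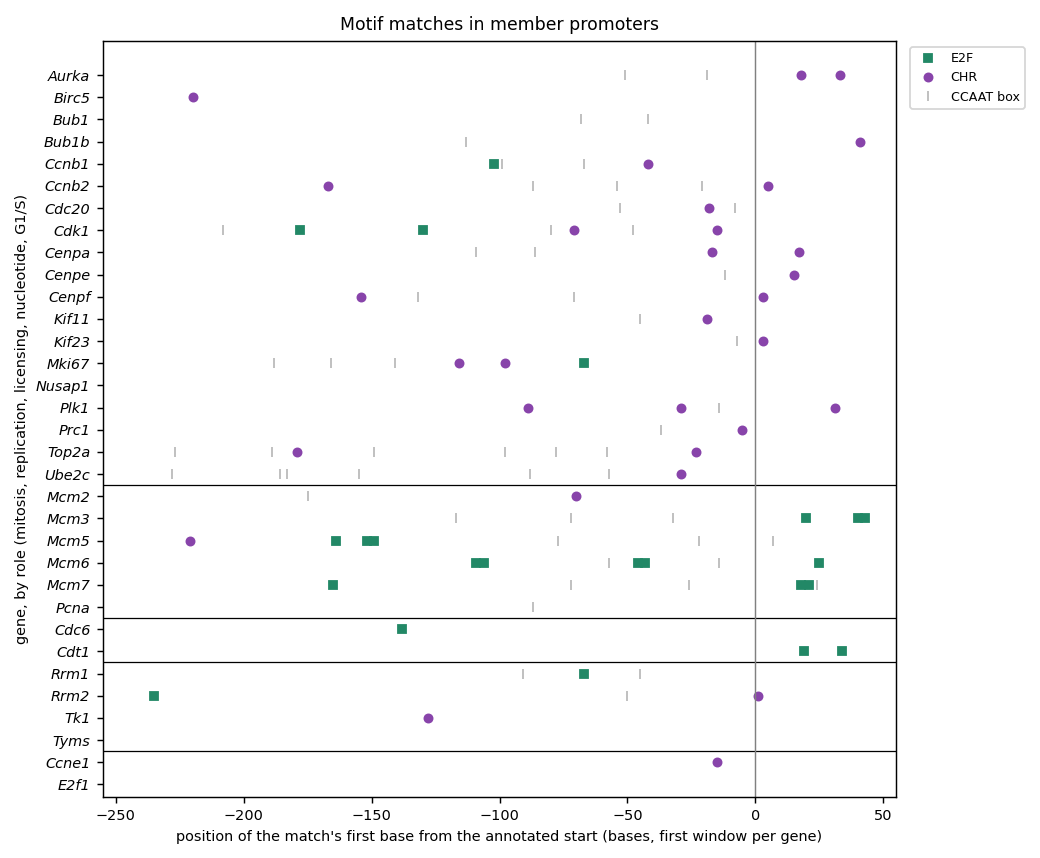
Position of E2F, CHR and CCAAT matches (x axis, bases from the annotated start) in the promoter window of each member with an entry (y axis, grouped by role from mitosis at the top to G1/S at the bottom; 1 window per gene). CHR matches lie mainly among the mitosis genes, and Mcm6 has the most E2F matches, with 5.

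The 5 promoters printed are those of the members on which the results turn most: Kif23, Kif11 and Cenpa of the mitosis group, called lower in 6, 6 and 5 of the 13 comparisons, and Mcm5 and Pcna of the replication group. Mcm5 was called lower in 5 comparisons, and Pcna was called lower in none. Capitals mark matches of any of the 3 motifs, and each sequence reads 5′ to 3′ along its gene. Kif23 lies at chr9:61946750-61947049 on the minus strand, Kif11 at chr19:37376132-37376431 on the plus strand, Cenpa at chr5:30666636-30666935 on the plus strand, Mcm5 at chr8:75109259-75109558 on the plus strand and Pcna at chr2:132253131-132253430 on the minus strand (GRCm38.p6).
Kif23: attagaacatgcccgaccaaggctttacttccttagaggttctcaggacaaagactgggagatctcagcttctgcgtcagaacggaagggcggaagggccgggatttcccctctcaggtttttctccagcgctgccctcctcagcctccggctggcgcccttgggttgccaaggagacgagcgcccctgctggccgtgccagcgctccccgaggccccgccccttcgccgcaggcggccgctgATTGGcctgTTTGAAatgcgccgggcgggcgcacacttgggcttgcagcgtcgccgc
Kif11: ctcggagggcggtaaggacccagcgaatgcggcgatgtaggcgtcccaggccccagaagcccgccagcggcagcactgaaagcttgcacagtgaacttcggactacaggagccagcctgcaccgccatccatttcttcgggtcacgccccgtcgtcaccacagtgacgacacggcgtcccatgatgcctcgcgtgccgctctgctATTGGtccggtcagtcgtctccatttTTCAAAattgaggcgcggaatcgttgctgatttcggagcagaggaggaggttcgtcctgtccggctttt
Cenpa: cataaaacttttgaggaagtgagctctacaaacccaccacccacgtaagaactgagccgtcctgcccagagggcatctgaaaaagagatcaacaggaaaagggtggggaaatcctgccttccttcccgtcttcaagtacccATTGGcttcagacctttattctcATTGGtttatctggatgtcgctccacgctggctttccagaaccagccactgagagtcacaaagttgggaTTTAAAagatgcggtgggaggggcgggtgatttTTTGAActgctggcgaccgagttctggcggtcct
Mcm5: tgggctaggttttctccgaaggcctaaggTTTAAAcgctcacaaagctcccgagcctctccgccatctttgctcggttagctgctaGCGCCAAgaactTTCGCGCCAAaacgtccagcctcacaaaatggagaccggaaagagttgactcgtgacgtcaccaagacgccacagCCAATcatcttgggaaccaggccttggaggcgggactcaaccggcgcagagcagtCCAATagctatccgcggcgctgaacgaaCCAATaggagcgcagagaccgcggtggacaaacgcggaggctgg
Pcna: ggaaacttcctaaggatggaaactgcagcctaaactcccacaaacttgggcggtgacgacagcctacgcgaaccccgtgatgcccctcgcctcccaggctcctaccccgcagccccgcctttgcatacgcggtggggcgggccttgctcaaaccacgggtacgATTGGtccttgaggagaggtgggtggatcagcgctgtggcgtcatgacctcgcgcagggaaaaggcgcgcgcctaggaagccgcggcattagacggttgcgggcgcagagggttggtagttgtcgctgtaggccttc

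Kif23 had a CHR match at position 3 from the start, beside a CCAAT box at -7, and Kif11 had a CHR match at -19 with a CCAAT box at -45. In Cenpa, CHR matches stood at -17 and 17 and CCAAT boxes at -109 and -86. Mcm5 held E2F matches at -164, -152 and -149, of which the last pair overlap, 3 CCAAT boxes and a distant CHR match at -221. Pcna held a CCAAT box at -87 and none of these E2F or CHR letters in its window.

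In the C57BL/6 homozygotes most members had log2 fold changes below 0 against wild type. Transcripts of 26 of the 36 members tested fell in Aire -/- and 0 rose, where 18.9% of all 12700 tested genes fell and 17.7% rose. In Y86C/Y86C 19 of 36 fell and 1 rose, against 27.9% and 21.7% of all genes. In C313X/C313X 12 of 34 fell and 0 rose, against 15.2% and 7.85% of all genes. In C442G/C442G 12 of 36 fell and 1 rose, against 23.1% and 19.5% of all genes. Calls are at an adjusted p under 0.05 in edgeR's quasi-likelihood test with Benjamini-Hochberg adjustment over all genes of a table.

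The median log2 fold change of the members was -0.72, -0.69, -0.71 and -0.42 in the homozygotes of the null, Y86C, C313X and C442G lines, and that of all tested genes lay between -0.03 and 0.00. In Aire -/- every tested member was below 0 (36 of 36), beside 50.4% of all genes. The count in C313X/C313X rested on few libraries: it was 6 without C313X/C313X library 1 and 5 without library 14. For C442G/C442G the count was 5 without wild-type library 88, 7 without homozygous library 84 and 7 without library 93, and 7 with no filter on low counts. DESeq2 called 24, 19, 10 and 8 members lower in these comparisons.

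Fold changes use TMM scaling. In plain counts per 1000000 counts of the library (CPM), which the values per library use, the median gene was lower by 0.11, 0.27, 0.22 and 0.19 (log2) in these homozygotes. Non-overlap in CPM was common: 26.9%, 44.6%, 31.2% and 29.7% of all genes had every homozygote below every wild type, beside 30 of 36, 28 of 36, 26 of 34 and 13 of 36 members. Whether a member changed is stated from the scaled fold changes.

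**Figure D2:**
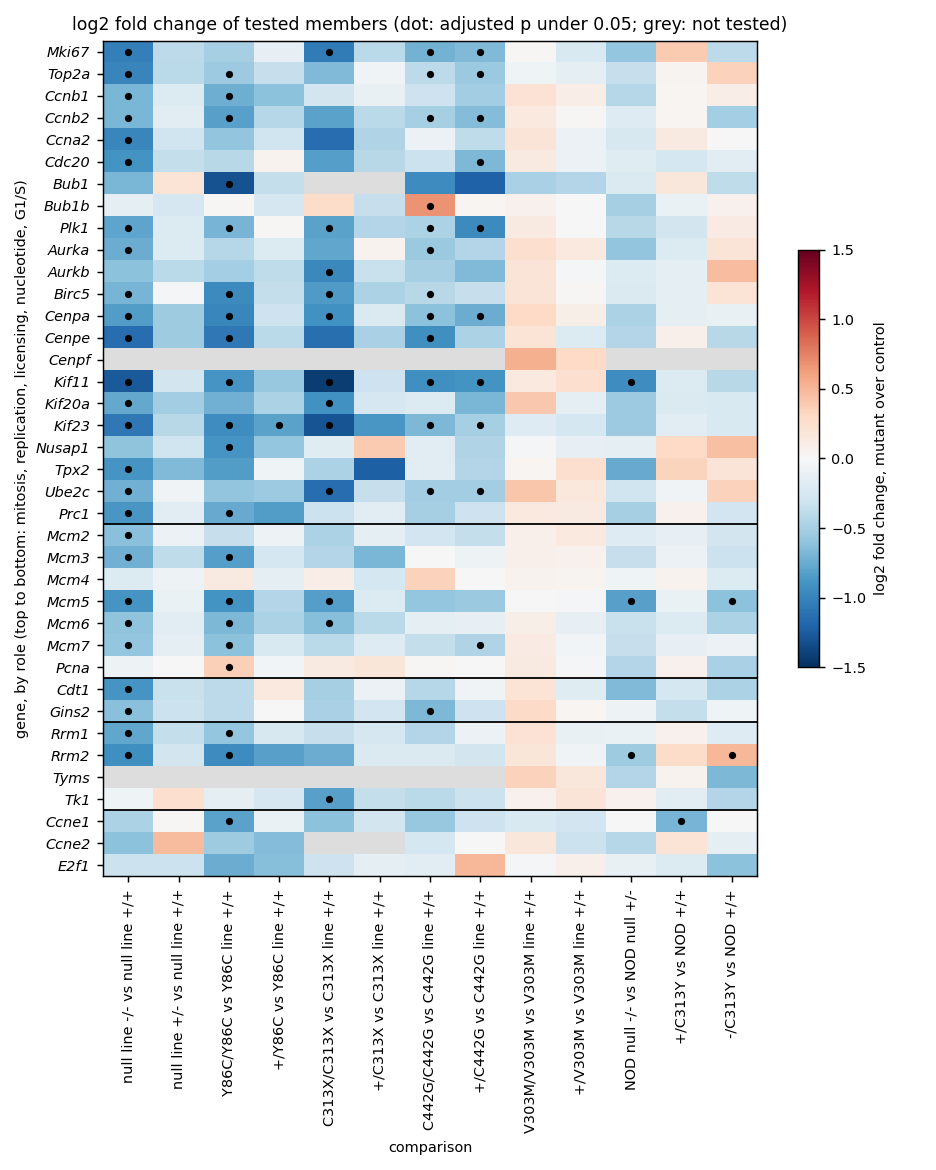
Log2 fold change (colour, blue lower and red higher in the mutant) of each tested member (rows, by role) in the 13 comparisons (columns). Black dots mark calls at an adjusted p under 0.05: most stand in the columns of the C57BL/6 homozygotes and of +/C442G, and no dot stands in the V303M columns.

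Summed CPM of the mitosis members put the groups side by side. In the null line the wild types had 720.2, 669.6 and 723 CPM, the heterozygotes 692, 494, 659.9, 519 and 470.5 and the homozygotes 369.7, 272, 434.999 and 395. Every homozygote lay below every wild type and every heterozygote, and the heterozygotes reached from just above the homozygotes into the wild-type range. The Y86C line had 706, 508 and 714 in wild type, 372, 569.9 and 455 in heterozygotes and 371, 377 and 245 in homozygotes. Of these, 2 homozygotes lay at the level of the lowest heterozygote. Wild types of the C313X line had 713, 547 and 410.1 CPM, heterozygotes 478 and 420.2 and homozygotes 267, 278 and 246. Homozygotes stood apart and close to each other, while the wild types were spread widely. In the C442G line the wild types had 476, 588 and 498 CPM, the heterozygotes 334, 337, 281, 367 and 315, and the 6 homozygotes 255 (lowest), 357 (median) and 416 (highest). Both mutant groups lay below the wild types and overlapped each other.

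**Figure D3:**
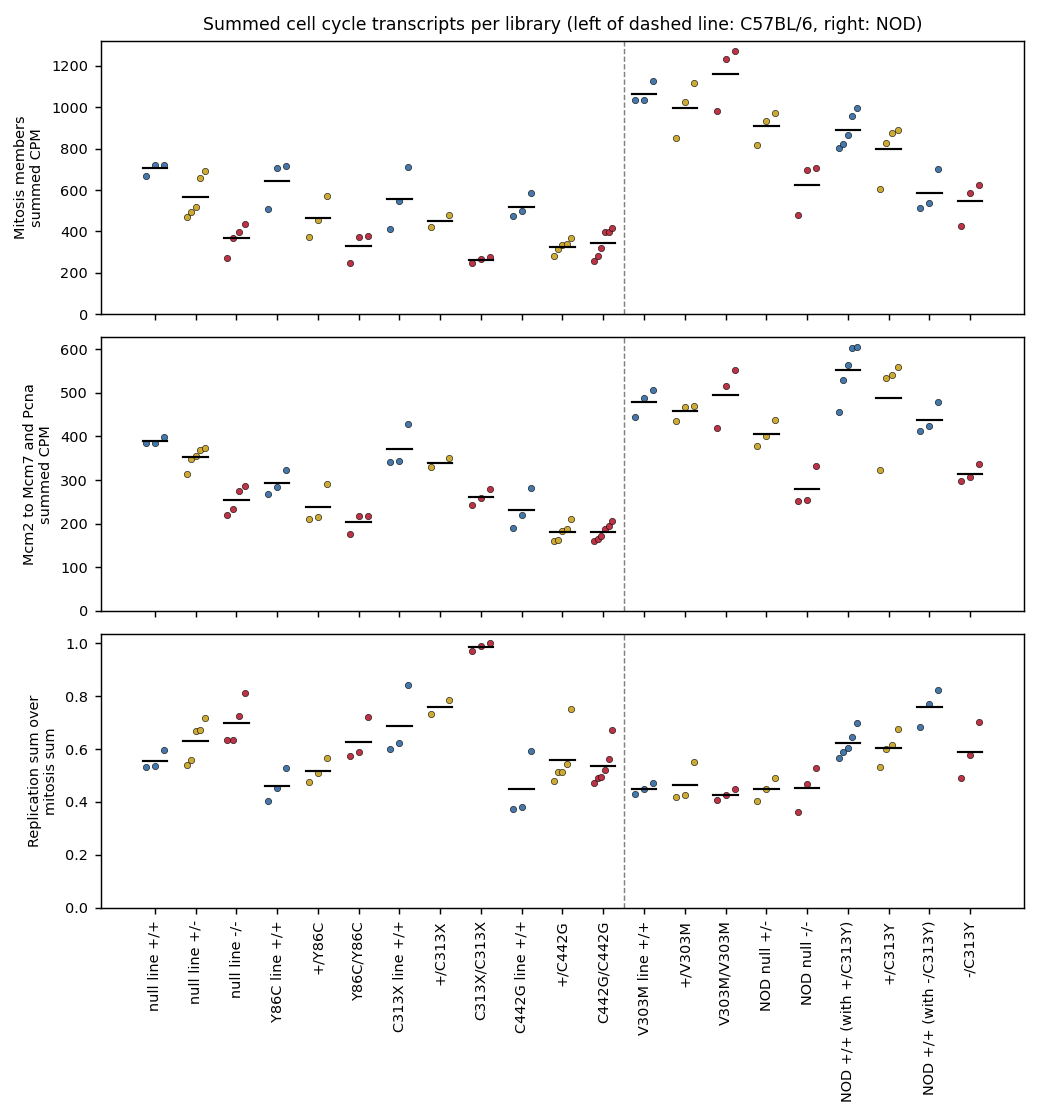
Summed CPM of the mitosis members (top), of Mcm2 to Mcm7 and Pcna (middle) and their ratio (bottom), per library (points) in the 21 groups, with group means as bars. Homozygotes of the 4 C57BL/6 lines lie below their wild types in the mitosis panel, and those of the null, Y86C and C313X lines lie above them in the ratio.

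Among mitosis members, 5 fell in the homozygotes of all 4 C57BL/6 lines: Plk1, Birc5, Cenpa, Kif11 and Kif23. These 5 were singled out after their values were seen. KIF23 is the kinesin of the central spindle and KIF11 the kinesin that separates spindle poles. PLK1 is a kinase of mitotic entry and cytokinesis, survivin (Birc5) is a subunit of the chromosomal passenger complex, and CENP-A is the histone H3 variant of centromeres.

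Kif23 had 39.0, 34.3 and 30.4 CPM in wild type of the null line and 17.7, 9.62, 14.9 and 18.5 in Aire -/-. The groups did not overlap, and the fold change was -1.07 ± 0.25 (adjusted p = 0.00159). Wild types of the Y86C line had 35.2, 34.0 and 44.4 CPM, heterozygotes 16.5, 25.9 and 19.5 and homozygotes 20.8, 17.1 and 9.98. Here the heterozygotes too lay below every wild type, with -0.80 ± 0.20 (adjusted p = 0.0221) beside -0.93 ± 0.20 (adjusted p = 0.000252) in homozygotes. In the C313X line the values were 32.2, 24.9 and 18.6 in wild type and 10.3, 10.5 and 5.06 in homozygotes, again apart, at -1.29 ± 0.32 (adjusted p = 0.014). C442G wild types had 20.0, 26.0 and 21.1, heterozygotes 16.0, 13.0, 13.0, 13.8 and 17.3 and homozygotes 9.87 (lowest), 12.4 (median) and 15.9 (highest). All mutants of that line were below all wild types, at -0.50 ± 0.19 (adjusted p = 0.0482) and -0.67 ± 0.18 (adjusted p = 0.00361).

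Kif11 was the member with the largest drop in Aire -/- and in C313X/C313X. Its values were 13.5, 18.3 and 21.1 CPM in wild type and 6.39, 5.21, 8.73 and 6.91 in Aire -/-, on 13 to 25 counts per homozygous library. No homozygote reached the wild types, and the fold change was -1.26 ± 0.27 (adjusted p = 0.000422). In C313X/C313X it had 4.59, 6.07 and 5.38 CPM beside 26.7, 13.3 and 12.2 in wild type. These groups were apart as well, at -1.42 ± 0.35 (adjusted p = 0.0131). In the C442G line the change was -0.90 ± 0.21 (adjusted p = 0.00176) in heterozygotes and -0.92 ± 0.20 (adjusted p = 0.000409) in homozygotes.

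Mki67 encodes the Ki-67 antigen, the common marker of cycling cells, and Top2a the topoisomerase that untangles sister chromatids. Mki67 had 96.3, 83.996 and 99.9 CPM in wild type and 45.1, 28.1, 58.0 and 41.7 in Aire -/-. Every homozygote lay well below every wild type, and the change was -1.03 ± 0.23 (adjusted p = 0.00317). The corresponding values were -1.05 ± 0.27 (adjusted p = 0.016) in C313X/C313X and -0.71 ± 0.17 (adjusted p = 0.00113) in C442G/C442G, both called. In Y86C/Y86C the libraries had 19.4, 22.9 and 13.97 CPM beside 30.6, 23.5 and 43.5 in wild type, narrowly apart, and the change did not pass at -0.50 ± 0.23 (adjusted p = 0.0773). Top2a had 64.9, 49.7 and 70.1 in wild type and 25.2, 18.4, 37.5 and 34.8 in Aire -/-. Groups did not overlap, at -0.99 ± 0.22 (adjusted p = 0.00166). Top2a fell in Y86C/Y86C (-0.55 ± 0.20, adjusted p = 0.0323) and C442G/C442G (-0.39 ± 0.16, adjusted p = 0.0457), and did not pass in C313X/C313X (-0.66 ± 0.26, adjusted p = 0.0909), where its wild types spread from 36.9 to 74.5 CPM.

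Members of the cyclins, the anaphase machinery and the passenger complex fell as well. Cyclin B1 (Ccnb1), the partner of CDK1, had 21.9, 23.7 and 23.7 CPM in wild type and 12.4, 9.22, 20.5 and 12.4 in Aire -/-. The highest homozygote came close to the lowest wild type without reaching it, and Ccnb1 fell at -0.68 ± 0.23 (adjusted p = 0.0198). It fell in Y86C/Y86C too, at -0.73 ± 0.20 (adjusted p = 0.0036), and in the C313X line its wild types ranged from 3.26 to 17.5 CPM and overlapped the homozygotes. Cdc20, the activator of the anaphase-promoting complex, had 52.5, 59.2 and 48.4 CPM in wild type and 26.3, 21.2, 27.7 and 30.1 in Aire -/-. This is a clear gap, and Cdc20 had the lowest adjusted p of all members there, at -0.90 ± 0.14 (adjusted p = 9.53e-06). Cdc20 did not pass in the homozygotes of the other 3 lines, where it was -0.42, -0.83 and -0.32. Ube2c, the ubiquitin-conjugating enzyme of that complex, fell in Aire -/- (-0.72), C313X/C313X (-1.14) and C442G/C442G (-0.52). Birc5 had 35.9, 42.1 and 39.9 CPM in C313X wild types and 18.1, 20.4 and 18.7 in homozygotes, with nothing between them. Its changes in the null, Y86C, C313X and C442G homozygotes were -0.70, -0.96, -0.85 and -0.42. The last had an adjusted p of 0.0484 and was not called by DESeq2.

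Bub1b, which encodes the checkpoint protein BUBR1, was called higher in 1 comparison and lower in none. It had 31.4, 22.5 and 24.7 CPM in wild type of the null line and 21.4, 20.4, 22.1 and 24.6 in Aire -/-, which overlapped (-0.15 ± 0.19, adjusted p = 0.559). In the C442G line the wild types had 10.8, 20.5 and 19.4 CPM, the heterozygotes 18.3, 16.4, 11.53, 19.6 and 14.8 and the homozygotes 21.3 (lowest), 22.8 (median) and 27.9 (highest). Every C442G/C442G library lay above every wild type, and Bub1b rose at 0.67 ± 0.19 (adjusted p = 0.00413). Heterozygotes stayed within the wild-type range (0.03). RLE scaling and DESeq2 kept the call in C442G/C442G.

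**Figure D4:**
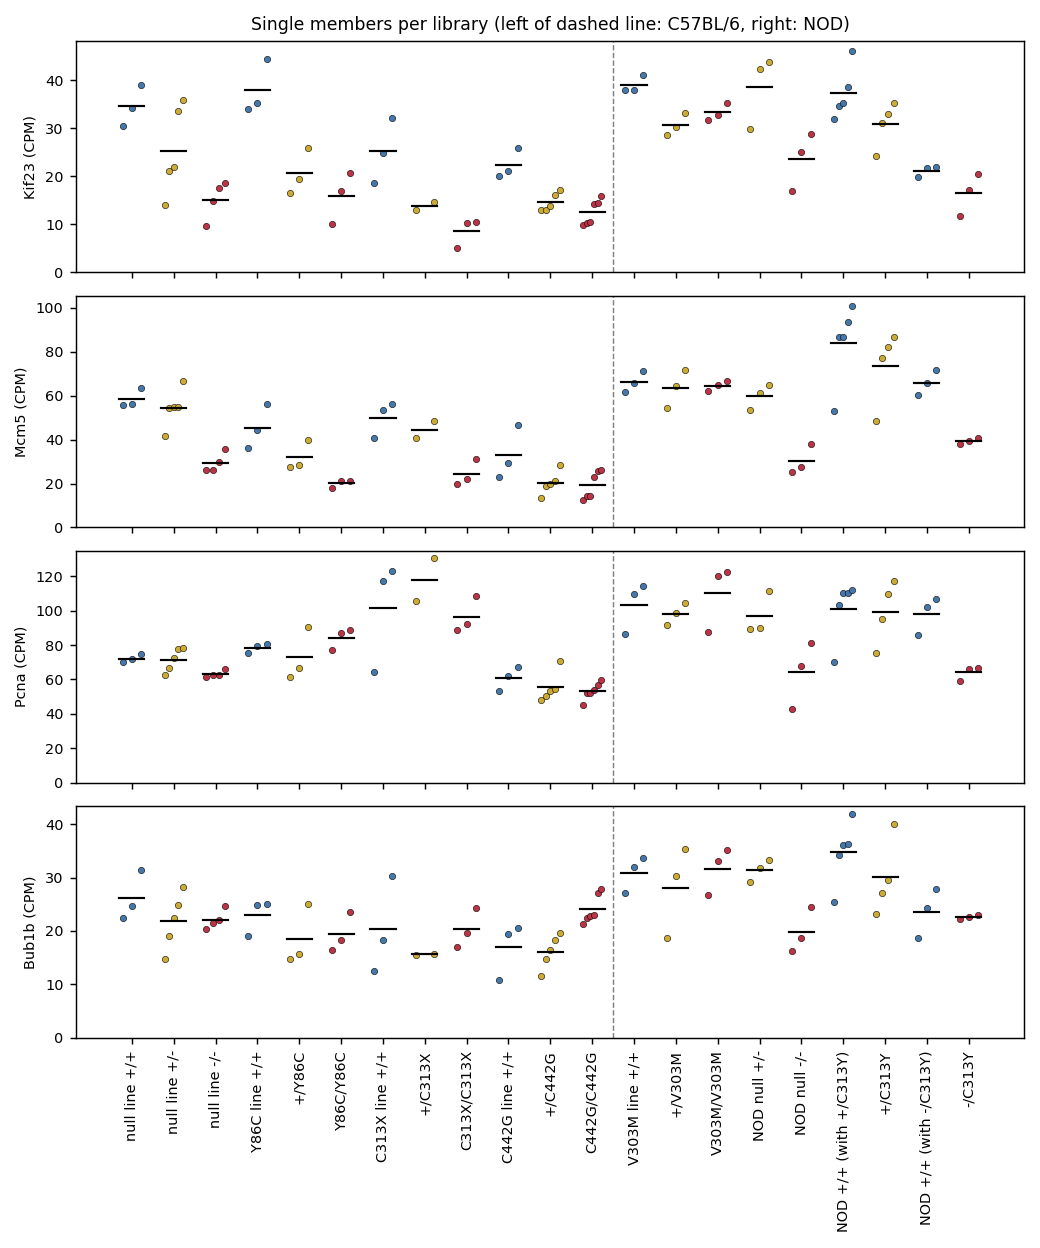
CPM of Kif23, Mcm5, Pcna and Bub1b per library (points) in the 21 groups, with group means as bars and axes from 0. Kif23 is below its wild types in the homozygotes of all 4 C57BL/6 lines and Mcm5 in those of the null, Y86C and C313X lines, Pcna overlaps its wild types in C57BL/6 homozygotes other than Aire -/-, and Bub1b is above its wild types in C442G/C442G.

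Replication members were lower too, with a smaller median change. The MCM proteins form the ring helicase that opens DNA ahead of the replication fork. In Aire -/- 5 of 7 replication members fell with a median of -0.60, beside 17 of 21 mitosis members with a median of -0.79. In Y86C/Y86C 4 fell and 1 rose (median -0.61), beside 12 of 21 (-0.73). In C313X/C313X 2 fell (-0.44), beside 9 of 20 (-0.84), and in C442G/C442G 0 fell (-0.14), beside 11 of 21 (-0.50). These medians describe each list, and their difference was not tested.

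Mcm5 was the replication member called most often. It had 63.4, 56.2 and 55.6 CPM in wild type, 66.6, 54.7, 54.5, 54.9 and 41.7 in Aire +/- and 26.3, 26.1, 29.8 and 35.7 in Aire -/-. Homozygotes were below all other libraries, while heterozygotes spanned the wild types, and the fold change in Aire -/- was -0.88 ± 0.15 (adjusted p = 1.85e-05). Y86C wild types had 44.1, 36.1 and 56.1 CPM and homozygotes 21.3, 21.2 and 18.0, which did not overlap, at -0.90 ± 0.17 (adjusted p = 6.35e-05). In the C313X line it had 56.1, 53.4 and 40.6 in wild type and 21.9, 31.3 and 19.6 in homozygotes, again apart, at -0.83 ± 0.22 (adjusted p = 0.0198). C442G wild types had 46.8, 29.5 and 22.8 and homozygotes 12.6 (lowest), 18.5 (median) and 26.1 (highest). These ranges overlapped and the difference did not pass (-0.58 ± 0.28, adjusted p = 0.105). Mcm6 had 67.8, 71.6 and 61.8 CPM in wild type and 31.9, 35.3, 52.9 and 45.3 in Aire -/-, apart, at -0.60 ± 0.16 (adjusted p = 0.00434). It fell in Y86C/Y86C (-0.67) and C313X/C313X (-0.64) and was not called in C442G/C442G (-0.14). Mcm4, a subunit of the same ring, was called in none of the 13 comparisons, with log2 fold changes of -0.21, 0.14, 0.10 and 0.35 in these homozygotes.

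Pcna encodes the clamp that holds DNA polymerase on its template and acts in DNA repair as well. It had 70.0, 74.5 and 71.6 CPM in wild type and 66.1, 61.3, 62.7 and 62.7 in Aire -/-. In CPM the homozygotes lay just below the wild types, and after TMM scaling the difference was -0.08 ± 0.11 (adjusted p = 0.594). In Y86C/Y86C it had 86.9, 88.8 and 77.3 CPM beside 80.5, 79.4 and 75.4 in wild type. The ranges overlapped in CPM and Pcna rose after scaling, at 0.36 ± 0.12 (adjusted p = 0.0123). C313X homozygotes had 108, 91.97 and 88.9 and wild types 123, 64.3 and 117, which overlapped, with 1 wild type low. C442G homozygotes had 45.4 (lowest), 53.0 (median) and 59.5 (highest) and wild types 67.4, 53.3 and 62.1. Pcna was not called in either line (0.14 and 0.02).

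Replication and mitosis sums gave a ratio within each library, which does not depend on scaling. In the null line it was 0.535, 0.595 and 0.531 in wild type and 0.633, 0.811, 0.633 and 0.724 in Aire -/-, all homozygotes above all wild types. Means were 0.554 ± 0.0363 (SD, n = 3) and 0.700 ± 0.0856 (SD, n = 4). Y86C wild types had 0.403, 0.529 and 0.453 and homozygotes 0.589, 0.575 and 0.722. C313X wild types had 0.600, 0.624 and 0.841 and homozygotes 0.973, 1.002 and 0.988. In both lines the homozygotes were again above the wild types. In the C442G line the ratio was 0.374 to 0.593 in wild type, 0.480 to 0.750 in heterozygotes and 0.472 to 0.671 in homozygotes, and the ranges overlapped. The direction held with Cdt1 and Gins2 added to the replication sum and with Mki67 and Top2a left out of the mitosis sum, in each of these 4 comparisons. Pcna was the largest term of the replication sum in every homozygote of these lines. In Y86C/Y86C it gave 86.9, 88.8 and 77.3 CPM of sums of 219, 217 and 177. No ratio was formed without Pcna, so whether the Mcm members alone keep the homozygotes apart was not tested. Since the members were chosen with earlier results known, the ratio has no test.

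**Figure D5:**
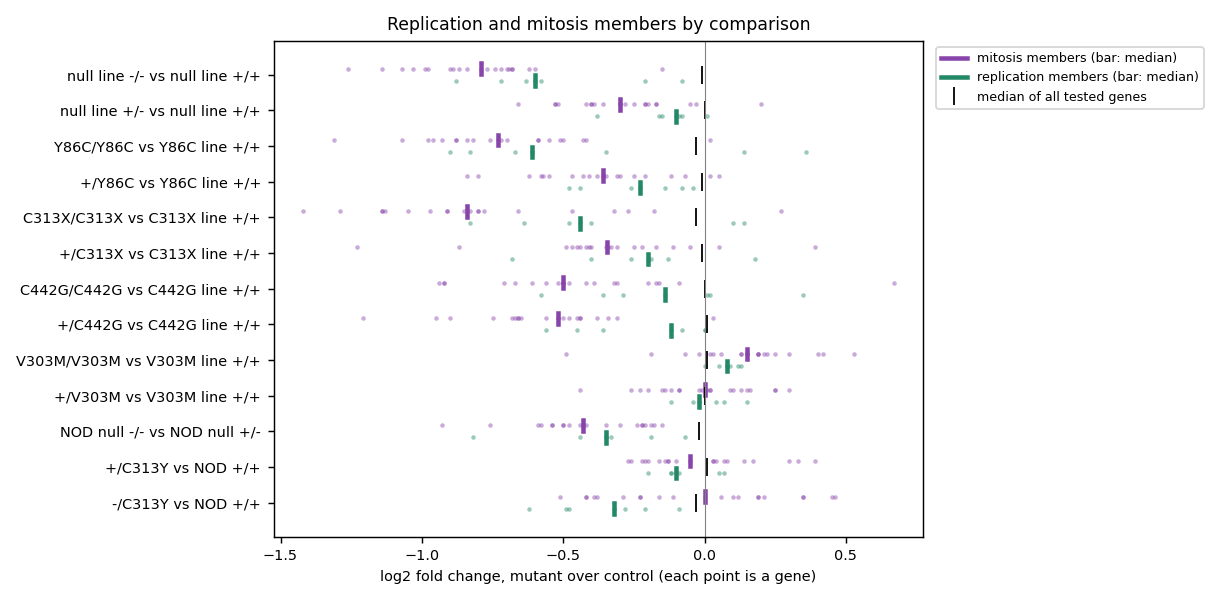
Log2 fold change (x axis) of each mitosis member (purple) and each replication member (green) in the 13 comparisons (y axis), with medians as bars and the median of all tested genes as a black tick. Mitosis medians lie left of replication medians in the C57BL/6 lines and in NOD Aire -/-, and right of them in -/C313Y.

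Few licensing and nucleotide members could be tested. In Aire -/- 2 of 2 licensing members (median -0.75) and 2 of 3 nucleotide members (-0.78) fell. The counts were 0 of 2 and 2 of 3 in Y86C/Y86C, 0 of 2 and 1 of 3 in C313X/C313X, and 1 of 2 and 0 of 3 in C442G/C442G. Among all genes 18.9%, 27.9%, 15.2% and 23.1% fell in these homozygotes. CDT1 loads the MCM ring at origins and GINS2 belongs to the active helicase. Cdt1 had 19.0, 18.3 and 26.3 CPM in wild type and 10.5, 9.22, 8.73 and 13.3 in Aire -/-, where it fell at -0.88 ± 0.22 (adjusted p = 0.00255), with no overlap. In other homozygotes it did not pass (-0.39, -0.50 and -0.43). Gins2 fell in Aire -/- (-0.63 ± 0.19, adjusted p = 0.00963) and C442G/C442G (-0.67 ± 0.20, adjusted p = 0.00762). Rrm1 and Rrm2 encode the subunits of ribonucleotide reductase, which makes deoxynucleotides. Rrm2 had 25.5, 31.9 and 30.4 CPM in wild type and 9.39, 10.02, 19.0 and 18.5 in Aire -/-, and 31.7, 27.6 and 39.9 in Y86C wild types and 15.8, 11.8 and 16.5 in Y86C/Y86C. Both homozygous groups lay below their wild types, at -0.92 ± 0.22 (adjusted p = 0.00123) and -0.94 ± 0.26 (adjusted p = 0.00491). Rrm1 fell in the same lines, at -0.78 and -0.58. Tk1, the salvage kinase for thymidine, had 24.8, 29.9 and 31.1 CPM in C313X wild types and 11.6, 16.9 and 14.6 in C313X/C313X. These were apart, and Tk1 fell at -0.82 ± 0.22 (adjusted p = 0.0218), while in Aire -/- it was -0.06.

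Members of the step from G1 to S were low and mostly not called. Cyclin E1 (Ccne1) drives this step with CDK2. It had 9.97, 10.5 and 8.52 CPM in Y86C wild types and 6.09, 4.997 and 1.996 in Y86C/Y86C, without overlap, and fell at -0.80 ± 0.32 (adjusted p = 0.0362). DESeq2 did not call it there. E2f1, the activator of the E2F targets above, had 10.2, 11.8 and 10.3 CPM in wild type and 8.64, 9.22, 7.19 and 6.91 in Aire -/-. All homozygotes were below the wild types in CPM, but E2f1 was called in none of the 13 comparisons, with -0.32, -0.74, -0.31 and -0.17 in the homozygotes. E2f1 rested on 14 to 28 counts per library in Aire -/- and its wild types.

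Heterozygotes on C57BL/6 had between 0 and 10 members called, each against the same wild types as the homozygotes of its line. In +/C442G 10 of 36 members fell and 0 rose, against 13.4% and 13.1% of all 13624 genes, and the count was 3 without wild-type library 88. Of the 10, 9 were mitosis members, led by Plk1, which had 30.3, 33.3 and 35.9 CPM in wild type and 12.8, 19.4, 10.8, 20.3 and 14.2 in heterozygotes. All heterozygotes were well below all wild types, at -0.95 ± 0.20 (adjusted p = 0.000525), and the homozygotes had 14.4 (lowest), 21.4 (median) and 25.7 (highest), at -0.48 ± 0.19 (adjusted p = 0.0365). Kif11 (-0.90), Cenpa (-0.75), Cdc20 (-0.67) and Mki67 (-0.66) fell as well. In +/Y86C 1 of 36 members fell (Kif23), against 1.04% of all genes lower and 2.32% higher. That count was 0 without wild-type library 3, heterozygous library 10 or heterozygous library 3, 2 without wild-type library 1 and 4 without heterozygous library 14. In Aire +/- 0 of 36 members were called by edgeR and 0 by DESeq2, with 6 at an unadjusted p under 0.05, against 0.102% of all genes lower and 0.378% higher. There 31 of 36 fold changes were below 0, with a median of -0.26. In +/C313X, with 2 libraries, 0 of 34 were called by either tool and 3 had an unadjusted p under 0.05, where 0.0% of all genes were called either way. Whether one heterozygote differs from another was not tested.

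On NOD the V303M line showed no called member. In V303M/V303M 0 of 38 members were called by edgeR or DESeq2 and 0 had an unadjusted p under 0.05, where 0.0511% of all 13700 genes were lower and 0.0146% higher. Mki67 had 73.5, 76.3 and 71.2 CPM in wild type and 63.5, 76.7 and 77.5 in homozygotes, and Mcm5 had 71.4, 61.6 and 65.6 and 64.6, 62.0 and 66.6. Both overlapped, at 0.02 and 0.00. The intervals reached from -0.27 to 0.31 for Mki67 and from -0.30 to 0.30 for Mcm5 (95%). The estimates for these genes in C57BL/6 Aire -/- lay below them, but those have errors of their own. A difference between the V303M and null lines was not tested. In +/V303M 0 of 38 were called by either tool and 0 had an unadjusted p under 0.05, where 0.0% of all genes were called either way. The mitosis sum was 1128, 1034 and 1037 CPM in wild type, 1025, 849.9 and 1119.8 in heterozygotes and 1234, 981 and 1271 in homozygotes, and these overlapped.

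NOD Aire -/- was compared with Aire +/-. Here 3 of 37 members fell and 0 rose, against 9.11% and 4.21% of all 13827 genes, so the share of members that fell was near that of all genes. The 3 were Mcm5, Kif11 and Rrm2. The count was 1 without heterozygous library 392 or 402, 0 without homozygous library 405 or 406, and 11 in a fit of these groups alone. Mcm5 had 61.1, 64.8 and 53.6 CPM in Aire +/- and 37.8, 27.7 and 25.4 in Aire -/-, apart, at -0.82 ± 0.22 (adjusted p = 0.011). Kif11 had 17.3, 19.7 and 18.7 and 9.98, 10.7 and 4.56, apart, at -0.93 ± 0.30 (adjusted p = 0.0395). Rrm2 had 91.4, 82.9 and 79.3 and 68.2, 51.4 and 37.1, apart, at -0.53 ± 0.18 (adjusted p = 0.0448). Homozygous library 406 was the lowest for all 3 genes. The fold change was below 0 for 35 of 37 members (52.2% of all genes), with a median of -0.35, and 24 members had all homozygotes below all heterozygotes in CPM, beside 29.3% of all genes. The mitosis sum was 973, 818 and 934 CPM in Aire +/- and 705, 696 and 478 in Aire -/-, without overlap. The ratio of replication to mitosis was 0.405 to 0.491 and 0.361 to 0.529, which overlapped.

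The C313Y allele gave few calls. In +/C313Y 1 of 37 members fell (Ccne1) and 0 rose, against 11.0% and 6.36% of all genes, which is a smaller share than in all genes. Ccne1 had 19.6, 13.4, 24.1, 25.6 and 28.3 CPM in wild type and 6.80, 14.1, 13.8 and 16.1 in +/C313Y. The groups overlapped, with heterozygous library 50 lowest, and the fold change was -0.70 ± 0.23 (adjusted p = 0.0362). That count was 0 without wild-type library 52, 78 or 80 or heterozygous library 50 or 73, 0 with all 8 NOD wild types as controls and 3 without the wild types titled C313T. Most others stayed near 0, with a median of -0.10, and Mki67 was 0.39 (adjusted p = 0.145).

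In Aire -/C313Y 1 of 37 members rose (Rrm2) and 1 fell (Mcm5), against 9.83% higher and 12.9% lower among all genes, again smaller shares. Mcm5 had 65.7, 60.1 and 71.5 CPM in wild type and 38.1, 40.5 and 39.6 in the mutants, a wide gap, at -0.62 ± 0.21 (adjusted p = 0.0321). Pcna had 85.5, 102 and 107 and 59.1, 66.8 and 66.3, apart in CPM, and did not pass (-0.49 ± 0.20, adjusted p = 0.0789). Rrm2 had 44.1, 47.6 and 44.5 in wild type and 66.9, 61.6 and 47.4 in mutants, with mutant library 3 just under the highest wild type, at 0.50 ± 0.18 (adjusted p = 0.044). With all 8 NOD wild types as controls Rrm2 was at -0.01, and the counts were 0 higher and 5 lower. Without a single library the count lower was 0 for wild-type library 1 or 3 and for mutant library 1, 2 or 3, and the count higher was 0 for wild-type library 1 or 2 and mutant library 1 or 2, and 2 without wild-type library 3. Here the replication members had a median of -0.32 and the mitosis members of 0.00. The replication sum was 424, 412 and 478 CPM in wild type and 306, 337 and 299 in mutants, without overlap, and 12 of 37 members had all mutants below all wild types, beside 27.2% of all genes. The mitosis sums of 514, 536 and 701 and 625.05, 584 and 425 overlapped. The ratio was 0.823, 0.769 and 0.682 and 0.490, 0.577 and 0.703, lower on average in the mutants but overlapping.

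Differences between lines were tested in a joint fit of all 73 grouped libraries. In each of the 6 differences 0 of 38 members were called by edgeR, the only tool run on them, with 0, 1, 5, 3, 1 and 3 members at an unadjusted p under 0.05. The homozygous effect of C442G minus that of the null allele had a median of 0.34 over the members, and 34 of 38 were above 0. For Bub1b this difference was 0.81 (95% interval 0.22 to 1.41, adjusted p = 0.144) and for Kif23 0.40 (95% interval -0.23 to 1.02, adjusted p = 0.609). Among all genes 0.612% were called higher and 1.17% lower in it. In Y86C minus null, Kif23 was 0.14 (95% interval -0.51 to 0.78, adjusted p = 0.919) and Pcna 0.45 (95% interval -0.06 to 0.96, adjusted p = 0.479), and 0.234% of genes were called higher and 0.709% lower. In C313X minus null, Kif23 was -0.16 (95% interval -0.85 to 0.53, adjusted p = 0.881), with 0.833% and 0.482% of genes called. C442G minus Y86C gave 0.63 (95% interval 0.02 to 1.25, adjusted p = 0.648) for Bub1b, and 0.0% of genes were called either way.

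Between strains, the effect of Aire -/- against Aire +/- on NOD minus that on C57BL/6 was 0.09 (95% interval -0.52 to 0.71, adjusted p = 0.967) for Kif23 and -0.05 (95% interval -0.65 to 0.56, adjusted p = 0.992) for Mcm5, where 0.757% of genes were called higher and 0.812% lower. The effect of C313Y without a normal copy minus that with one was -0.78 (95% interval -1.37 to -0.19, adjusted p = 0.182) for Mki67 and -0.56 (95% interval -1.03 to -0.09, adjusted p = 0.253) for Pcna, with 0.998% and 0.723% of genes called. The intervals are wide, so lines that differ in their calls were not shown to differ in these genes, nor to act alike.

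Levels in wild types differed between tables and within the shared NOD table. The mitosis sum was 669.6 to 723, 508 to 714, 410.1 to 713 and 476 to 588 CPM in the wild types of the null, Y86C, C313X and C442G lines on C57BL/6. On NOD it was 1034 to 1128 with V303M, 803 to 998 with +/C313Y and 514 to 701 with Aire -/C313Y. The first pair of NOD groups lay above all C57BL/6 wild types and the last overlapped them. Strain and table cannot be told apart here, and no test was made across tables. The wild types set against +/C313Y and against Aire -/C313Y share strain, genotype and table, yet their ranges did not overlap. That gap was not tested either.

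Other genes of the pathway, from lists chosen by function with earlier results known, were counted in the same 4 homozygotes. Of further mitosis genes, 22 of 52 tested fell and 1 rose in Aire -/-, 20 of 49 fell and 2 rose in Y86C/Y86C, 7 of 50 fell and 0 rose in C313X/C313X, and 16 of 52 fell and 1 rose in C442G/C442G. Cenpm, a kinetochore gene, was at -1.38 ± 0.18 in Aire -/- (adjusted p = 5e-07) and -1.45 ± 0.20 in Y86C/Y86C (adjusted p = 4.99e-07). Pttg1, which encodes securin, rose in Aire -/- at 0.51 ± 0.11 (adjusted p = 0.000633). Of further replication genes, 14 of 40, 12 of 40, 7 of 42 and 5 of 40 fell and 1, 2, 2 and 3 rose. Among all genes 18.9%, 27.9%, 15.2% and 23.1% fell in these homozygotes. The counts of both lists in C313X/C313X and of replication genes in Y86C/Y86C were near that share, and the count of replication genes in C442G/C442G was below it. E2f7, a repressor of the E2F family, fell in all 4 (-1.35, -1.91, -1.72 and -1.67), and Pola2, a subunit of DNA polymerase alpha and primase, rose in all 4 (0.84, 0.67, 0.83 and 0.95).

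Regulators of G1 were called in both directions at shares near or below those of all genes in Aire -/- and Y86C/Y86C. Of 21 tested, 3 rose and 3 fell in Aire -/-, 5 rose and 3 fell in Y86C/Y86C, and 7 rose and 3 fell in C442G/C442G. In C313X/C313X 0 of 22 rose and 1 fell. All genes were called higher at 17.7%, 21.7% and 19.5% and lower at 18.9%, 27.9% and 23.1% in Aire -/-, Y86C/Y86C and C442G/C442G, and at 7.85% and 15.2% in C313X/C313X. Gadd45a, a stress gene linked to growth arrest, had 85.7 ± 0.550 CPM in wild type (SD, n = 3) and 138 ± 6.86 in Aire -/- (SD, n = 4) and rose at 0.79 ± 0.11 (adjusted p = 1.59e-06). It rose in Y86C/Y86C (1.15), +/Y86C (0.52), C442G/C442G (0.63), +/C442G (0.83) and Aire -/C313Y (0.89). Ccnd1, the cyclin that starts G1, fell in Aire -/- (-0.78), Y86C/Y86C (-0.58) and C442G/C442G (-0.45). Cdkn1c, which encodes the inhibitor p57, fell in C442G/C442G (-0.97), NOD Aire -/- (-1.03), +/C313Y (-1.61) and Aire -/C313Y (-0.76).

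Some markers of other thymic cells differed between the groups that differed in cell cycle genes. In Aire -/- the sums for thymocytes, macrophages, fibroblasts and keratinocyte-like cells overlapped wild type. Marker counts stand beside 18.9% of all genes lower in Aire -/-, 27.9% in Y86C/Y86C and 15.2% in C313X/C313X. Lower were 23.1% in C442G/C442G and 9.11% in NOD Aire -/-. Higher, in the same order, were 17.7%, 21.7%, 7.85%, 19.5% and 4.21% of all genes. In Aire -/- the summed markers of immature and basal medullary epithelium were 4328 to 5461 CPM beside 8199 to 8398 in wild type, and 7 of 9 tested fell, with Ccl21a not listed. The sum of the 19 medullary epithelial markers was 61400.1 to 80407 beside 55069.7 to 56789. Of these, 13 of 19 rose and 2 fell, beside 17.7% of all genes higher. This list is not limited to mature cells: it shares Krt5 and Krt14 with the basal list and includes Aire. Basal sums were 2952 to 2988 in Y86C/Y86C beside 4450.5 to 5625, 3885 to 4197 in C313X/C313X beside 4472 to 6512, and 3619.7 to 4029 in C442G/C442G beside 4844 to 7019.9. In all 4 lines the homozygous sums lay below those of the wild types, and Krt17 had the highest mean of the list in each. By gene, 5 of 9 fell and 1 rose in Y86C/Y86C and likewise in C442G/C442G. In C313X/C313X 1 of 9 fell and 1 rose, which is near the share of all genes. NOD Aire -/- had basal sums of 6738 to 7443 beside 7892 to 8469.7 in Aire +/-, and 0 of 9 basal markers were called by edgeR. The part of these cells in the results was not tested.

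Cortical epithelial markers had higher sums in the homozygotes of all 4 C57BL/6 lines, without overlap. Tbata had the highest mean of this list, at 2064, 2643, 1887 and 2648 CPM in the null, Y86C, C313X and C442G tables. The sums were 4012 to 5038 CPM in Aire -/- beside 2215 to 2249 in wild type, and 6455 to 7500.4 beside 3424 to 3838 in the Y86C line. They were 3667 to 5016 beside 2849 to 3302 in the C313X line and 4786 to 5971 beside 2963 to 3890.1 in the C442G line. By gene the calls were split, with 2 of 7, 2 of 8, 2 of 9 and 2 of 10 higher and 2, 5, 4 and 4 lower. Among all genes 17.7%, 21.7%, 7.85% and 19.5% were higher. Median log2 fold changes of the tested cortical markers were 0.14, -0.84, -0.89 and -0.63. Markers of keratinocyte-like cells past the AIRE stage summed to 306 to 397 in Y86C/Y86C beside 574 to 659, where 7 of 10 fell and 1 rose. In C442G/C442G they were 363 to 518 beside 765 to 802, where 9 of 11 fell and 1 rose, and in C313X/C313X 229 to 374 beside 426 to 765, where 4 of 11 fell. In Aire -/- they overlapped wild type at 406 to 512 and 438.4 to 515. NOD Aire -/- had cortical sums of 1733 to 2055 beside 1387 to 1589 and post-AIRE sums of 653 to 708 beside 855 to 1001, both without overlap. Fibroblast and endothelial sums were 446 to 527 beside 256 to 302 in the Y86C line and 289 to 426 beside 146 to 189 in the C442G line, higher without overlap. In the null and C313X lines these sums overlapped. By gene the picture differed: 2 of 7 rose and 4 fell in Y86C/Y86C, and 2 of 8 rose and 1 fell in C442G/C442G. The shares that rose were near those of all genes there, 21.7% and 19.5%. In Aire -/- 5 of 8 rose and 1 fell, beside 17.7% of all genes higher, and in C313X/C313X 0 of 8 were called either way. Dcn had the highest mean of this list in the Y86C and C442G tables, at 231.6 and 226.6 CPM. The part of these cells was not tested either.

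Thymocytes divide too, and their markers were at 334 to 447 CPM in Aire -/- and 323 to 423 in wild type. These sums overlapped, with 0 of 15 thymocyte markers lower and 1 higher. In Y86C/Y86C they were 228 to 258 beside 275 to 286 (6 of 15 fell and 3 rose), in C313X/C313X 353 to 435.9 beside 525.99 to 647 (6 of 20 fell) and in C442G/C442G 268 to 402 beside 323 to 488 (3 of 16 fell and 3 rose). NOD Aire -/- had 246 to 305 beside 348 to 634 in Aire +/-, and 7 of 18 fell. Rag2 and Trbc2 were listed in no table. Macrophage and dendritic cell markers summed to 1732 to 1971 CPM in C313X/C313X and 2196 to 4279 in wild type, where 10 of 15 fell, and to 1323 to 1862 and 1185 to 1480.0 in the null line, which overlapped. They were higher without overlap in Y86C/Y86C (1213 to 1394 beside 1025 to 1095) and in C442G/C442G (1471 to 1545 beside 1123 to 1429), where 5 of 14 and 9 of 15 fell and 4 and 4 rose. Lyz2 had the highest mean of this list in the Y86C and C442G tables, at 662 and 844 CPM. Among all genes 21.7% were higher in Y86C/Y86C and 19.5% in C442G/C442G. Xcr1 and Clec9a were listed in no table. B cell markers summed to between 75.4 and 158 CPM over all groups. The part of thymocytes, macrophages and B cells in the lower cell cycle transcripts was not tested.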

How the data were processed

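Bulk MARS-seq libraries of sorted mTEChi were deposited by the authors as tables of counts per gene, which also hold the authors' normalized values and test results. Reads were handled with bcl2fastq, cutadapt, STAR 2.4.2a, HTSeq and DESeq2 on mm10, per the submitters' processing notes. Trimming and counting settings, annotation, strand and the use of molecular identifiers are not given in the sources used here. Only the count columns of the 74 libraries were used, and 148 other columns of values per sample were not used. Library totals were 1016619 to 7225403 counts.

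The test was edgeR 4.0.16 (R 4.3.3), with TMM factors, filterByExpr and the robust quasi-likelihood F-test. Each table had 1 fit over its groups, with Benjamini-Hochberg adjustment over all tested genes. Calls are at an adjusted p under 0.05. Values after ± are standard errors for fold changes and SDs for CPM. Intervals of 95% use the t quantile of the fit. Differences between lines came from a joint fit of 73 libraries over genes in all 6 tables. Alternatives were DESeq2 1.42.0, dropping the filter, RLE scaling, fewer or other control groups, and leaving out each library. The fits were tested on simulated data.

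The members and lists were chosen with earlier results of these data known. Named were role representatives, members with the largest called changes, and members called against the majority, with values per library where a result turns on them. A library titled wild type but labelled Aire -/- was put in no group.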

Additional observations from a re-analysis of the deposited data

Results flagged for a closer look

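Among 90 groups and values checked for a library far from the others, 3 stood apart, and chance alone marks about 1 in 20 groups. In +/C442G the ratio of replication to mitosis sums was 0.749669 in library 85, the highest of 5, where the nearest other library had 0.542 and the lowest 0.480. Pcna was at 69.8249 CPM in library 45 of the NOD wild types set against +/C313Y, the lowest of 5, where the nearest other had 103 and the highest 112.0. This library is one of the pair titled C313T. In +/C313Y the replication sum was 321.88 CPM in library 50, the lowest of 4, where the nearest other had 533 and the highest 559. Their causes were not tested.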

How the results depend on the processing

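Counts of members called higher or lower under the alternatives were within 1.5 times the reported count in all but the following. Lower in C442G/C442G were 7 with no filter on low counts, and lower in NOD Aire -/- were 11 in a fit of those groups alone. In +/C313Y, 1 was higher both with all 8 NOD wild types and without the wild types titled C313T, and 0, 0 and 3 were lower with the 2 groups alone, all 8 wild types, and no C313T titles. In Aire -/C313Y, 0 were higher with RLE factors and 0 with all 8 wild types, and 3 and 5 were lower with the 2 groups alone and with all 8 wild types. Rrm2 there reversed to -0.01 with all 8 wild types. In C442G minus the null allele, 1 member was higher when only the groups of those effects were fitted. Leaving out 1 library at a time gave, for members lower, 0 to 4 in +/Y86C, 5 to 15 in C313X/C313X, 5 to 14 in C442G/C442G, 3 to 11 in +/C442G, 0 to 2 in NOD Aire -/-, 0 to 1 in +/C313Y and 0 to 1 in Aire -/C313Y, and 0 to 2 higher in the last. The cause was not tested, but leaving out libraries leaves fewer samples. Replicate numbers are shared by Aire -/C313Y and its wild types. Their same-numbered libraries correlated at 0.06, -0.04 and 0.16 in their deviations, and pairs with unlike numbers at -0.14 to 0.08. With 3 libraries per group this cannot decide whether equal numbers mark a pairing, and the main fit treated the libraries as unpaired. A replicate block gave 4 members lower there. The replication to mitosis ratio kept its direction under both changes of its gene groups, except in NOD Aire -/- and +/C313Y, where it was within 0.06 of 0 on the log2 scale. Whether depth limits the calls of low members was not tested. Kif11 was called on 13 to 25 counts per library in Aire -/-.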

Other observations

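The library titled wild type but labelled Aire -/- in the C57BL/6 null table had a mitosis sum of 543 CPM, a replication sum of 319 CPM and a ratio of 0.587. It entered no comparison.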
